A study of Mus musculus with 8 samples.

Results

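The subunits of oxidative phosphorylation were followed in Lewis lung carcinoma (LLC) cells, a mouse carcinoma line, with and without the oxygen-sensing hydroxylase FIH. Members were the protein-coding genes whose symbols name a subunit of complex I (Nduf and mt-Nd), complex II (Sdha to Sdhd), complex III (Uqcr, Cyc1 and mt-Cytb), complex IV (Cox4 to Cox8 and mt-Co) or complex V (Atp5 and mt-Atp). The rule used names only and no measured value, and it found 102 of the 53700 genes of the count table, 89 in the nucleus and 13 in the mitochondrial genome. They comprised 47 genes of complex I, 4 of complex II, 10 of complex III, 21 of complex IV and 20 of complex V. The table lists Atp5o under 2 identifiers, so that the 102 genes have 101 symbols.

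RNA-Seq counts came from 8 libraries in 4 groups of 2, which were WT normoxia, WT hypoxia, FIH-KO normoxia and FIH-KO hypoxia. Normoxia was 21% O2 and hypoxia 1% O2, each lasting 16 hours, and no other agent separated the groups. FIH-KO cells carry a CRISPR/Cas9 edit of Hif1an, the gene for FIH, and were grown from a single cell, so that genotype and clone cannot be told apart. The sources used here do not say whether the 2 libraries of a group came from separate cultures, and p-values measure the spread between libraries only. Library totals ran from 14519731 to 18177016 counts. Hif1an itself held 1231 to 1609 counts in WT libraries and 584 to 784 in FIH-KO libraries. Markers of the line summed to 3410 to 5874 CPM (counts scaled to a common library size), with Vim and the keratins Krt8 and Krt18 present, Epcam at 0 in every library and Cdh1 at 0.0683 CPM or less. The 6 immune markers summed to at most 0.533 CPM in WT and 5.99 CPM in FIH-KO libraries, most of it Lyz2, and the 3 endothelial markers to 0.296 to 0.321 CPM in WT normoxia, 1.77 to 2.41 in WT hypoxia and at most 0.437 in FIH-KO libraries. Of these markers Cdh5 had 2 and 1 counts in WT normoxia and 35 and 18 in WT hypoxia, and its level was lower in FIH-KO than in WT hypoxia. Cdh5 passed the filter on low counts only through the WT hypoxia libraries, where it was high, so its calls add no support to these counts. The part of these low sums in any result was not tested.

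Oxidative phosphorylation is the final stage of respiration in the inner mitochondrial membrane. Complexes I and II feed electrons from NADH and succinate to ubiquinone, complex III passes them on to cytochrome c, complex IV hands them to oxygen, and complex V makes ATP from the proton gradient that complexes I, III and IV build. Every complex but II is a mosaic of nuclear and mitochondrial gene products, and the mitochondrial genes code for the hydrophobic core subunits. In low oxygen, HIF is known to divert pyruvate from the mitochondria through Pdk1 and, in some cells, to exchange a subunit of complex IV for another isoform. FIH hydroxylates an asparagine in the activation domain of HIF-alpha and so limits its activity while oxygen is present.

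Of the 102 members, 93 passed the filter on low counts, namely 80 nuclear genes and all 13 mitochondrial genes. Levels are given as CPM and, between genes, as CPM per kb of the main GENCODE transcript. Its length ranged widely, with 4389 bases for Ndufb2 and 371 for Atp5k, so that ranks between genes also depend on the transcript chosen. Atp5b, the catalytic beta subunit of ATP synthase, had the highest nuclear level with a mean of 759 CPM per kb over the 8 libraries, followed by the alpha subunit Atp5a1 with 390 CPM per kb and the complex IV subunit Cox4i1 with 292 CPM per kb. Median levels over the tested nuclear genes of a complex were 41.0 CPM per kb for complex I, 68.6 for II, 66.6 for III, 120 for IV and 96.3 for V. The lowest levels among tested nuclear genes were those of Ndufb2 with 1.63 and Cox6a2 with 2.17 CPM per kb. In 7 members no library held a count, which allows up to 3 counts or 0.168 to 0.205 CPM per library. They were Cox4i2, Cox6b2, Cox7b2, Cox8b, Cox8c, Ndufb11b and the second Atp5o entry. The isoform of complex IV known to respond to low oxygen, Cox4i2, was thus not detectable at this depth in either genotype or oxygen condition.

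Mitochondrial genes lay at widely different levels. The highest mean levels were 5062 CPM per kb for mt-Co1, the catalytic subunit of complex IV, 3610 for mt-Cytb of complex III, 3033 for mt-Nd1 and 2061 for mt-Nd2. In contrast, mt-Co2, mt-Co3, mt-Atp6, mt-Atp8, mt-Nd3 and mt-Nd4l lay between 6.84 and 31.7 CPM per kb, with at most 428 counts in any library. In those 6 genes, 98.8% to 100% of all windows of 100 bases occur exactly elsewhere in the GRCm39 genome, against at most 60.75% in the other 7. The source is a copy on chromosome 1, where 7 unprocessed pseudogenes lie between 24650616 and 24655278 and correspond to bases 6394 to 11042 of the mitochondrial genome. The start of the coding sequence of mt-Co2 is printed because it reads the same in both places, at chrM:7013-7072 on the plus strand and at chr1:24654587-24654646 on the minus strand.
mt-Co2: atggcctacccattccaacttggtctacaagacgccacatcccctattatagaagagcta
A read from these 60 bases cannot be assigned to either place by sequence. How the counting treated such reads is not given in the sources used here, and the levels of the 6 genes are therefore uncertain. Counts of mt-Nd6, the single protein gene on the other strand, were also low, at 460 to 1377 per library, although none of its windows is repeated.

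**Figure D1:**
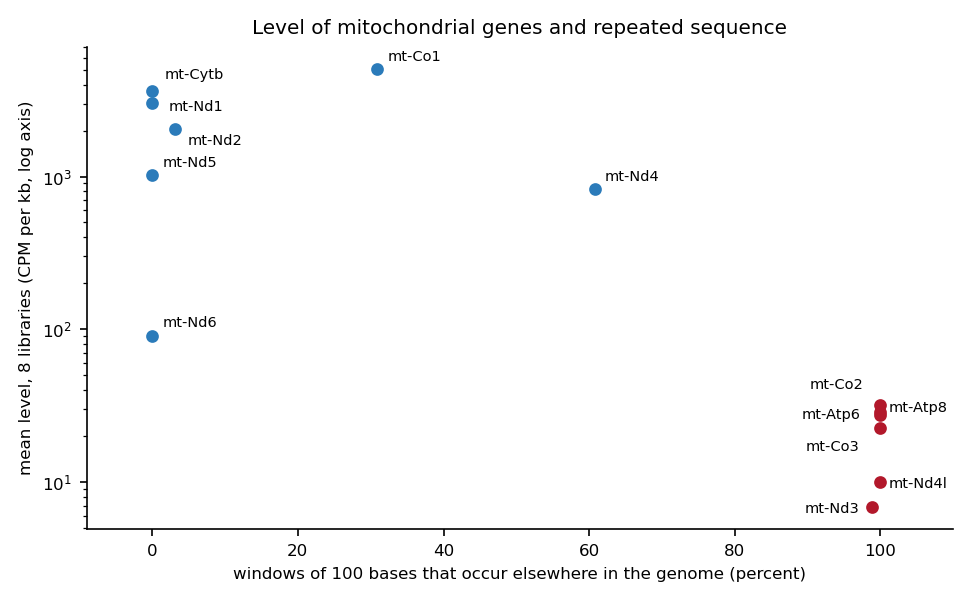
Mean level of each mitochondrial gene over 8 libraries (CPM per kb, log axis) against the percent of its windows of 100 bases that occur exactly elsewhere in the genome. The 6 genes at 98.8% or more, in red, lie between 6.84 and 31.7 CPM per kb, while the 7 others lie between 90.6 and 5062.

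Hypoxia lowered nuclear subunit genes of all 5 complexes in WT cells. Of the 80 tested nuclear members 52 were lower and 3 higher at 1% O2 by edgeR's quasi-likelihood test, with Benjamini-Hochberg adjustment over 13933 genes and a threshold of 0.05. Among all tested genes, 15.5% were lower and 16.9% higher. The median log2 fold change of the nuclear members was -0.45, beside -0.001 for all tested genes. Both hypoxia libraries lay below both normoxia libraries for 73 of the 80, or 91.2%, against 35.6% of all tested genes. With each of the 8 libraries left out in turn, 33 of the 55 nuclear calls held every time, counting Cox6a2, whose limit is given below. The count over all 93 tested members was 59, and it was 36 without WT normoxia replicate 2 and 39 without WT hypoxia replicate 2. In bulk RNA, fewer cells of a kind and less RNA per cell cannot be told apart.

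In complex II all 4 genes of succinate dehydrogenase, which also serves the citric acid cycle, fell in WT hypoxia, with a median log2 fold change of -0.62. Sdhd, a membrane anchor subunit, had 197 and 189 CPM in WT normoxia and 107 and 104 CPM in WT hypoxia. Its log2 fold change was -0.87 ± 0.11 (SE, edgeR adjusted p = 0.00013). Sdha, the flavoprotein that oxidises succinate, went from 366 and 359 CPM to 245 and 251 CPM, a log2 fold change of -0.55 ± 0.12 (adjusted p = 0.0057). The iron-sulfur subunit Sdhb and the second anchor Sdhc fell by 0.60 and 0.64 on the log2 scale. All 4 calls held with each library left out.

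Complex V had 15 of 17 tested nuclear genes lower in WT hypoxia, 0 higher and a median log2 fold change of -0.57. Atp5k, the small membrane subunit e, fell most of all called nuclear members, from 52.9 and 50.1 CPM to 24.8 and 22.4 CPM. That is a log2 fold change of -1.13 ± 0.14 (adjusted p = 0.00013). Atp5g3 encodes the ring-forming c subunit, whose mature protein is also made from Atp5g1 and Atp5g2. Its level went from 301 and 302 CPM to 157 and 159 CPM, a log2 fold change of -0.93 ± 0.10 (adjusted p = 6.8e-05). The other c subunit genes fell by 0.56 (Atp5g1) and 0.57 (Atp5g2), and 65.3% and 87.5% of their 100-base windows are repeated elsewhere in the genome, whereas none of those of Atp5g3 is. Of the catalytic head, Atp5a1, Atp5b and the gamma subunit Atp5c1 fell by 0.72, 0.43 and 0.63, and the call of Atp5b held in 5 of the 8 fits with a library left out. The 2 tested genes of complex V that missed the threshold were Atp5h, with 142 and 133 CPM against 109 and 117, and Atp5j, with 105 and 101 CPM against 76.0 and 91.5.

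In complex III 7 of 9 nuclear genes were lower, 1 was higher and the median was -0.51. Uqcrh, the hinge protein that meets cytochrome c, had 123 and 118 CPM in WT normoxia and 58.0 and 64.3 CPM in WT hypoxia, a log2 fold change of -0.98 ± 0.12 (adjusted p = 0.00015). Core protein Uqcrc1, the Rieske iron-sulfur protein Uqcrfs1 and cytochrome c1 (Cyc1) fell by 0.82, 0.63 and 0.51. Complex I had 23 of 38 nuclear genes lower, 1 higher and a median of -0.41. Its lower genes included the catalytic core subunits Ndufs1, Ndufs8, Ndufv1 and Ndufv2, of which Ndufs1 and Ndufv1 kept their call with each library left out. They also included accessory subunits, of which Ndufb10 fell most, from 69.9 and 74.4 CPM to 39.3 and 40.8 CPM (log2 fold change -0.85 ± 0.14, adjusted p = 0.00071). Complex IV had 3 of 12 tested nuclear genes lower, 1 higher and a median of -0.30. Cox7a2, Cox6b1 and Cox7b fell by 0.68, 0.51 and 0.43, while Cox4i1 had 239 and 247 CPM in WT normoxia and 231 and 203 CPM in WT hypoxia. Whether complex IV differed from the others was not tested.

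**Figure D2:**
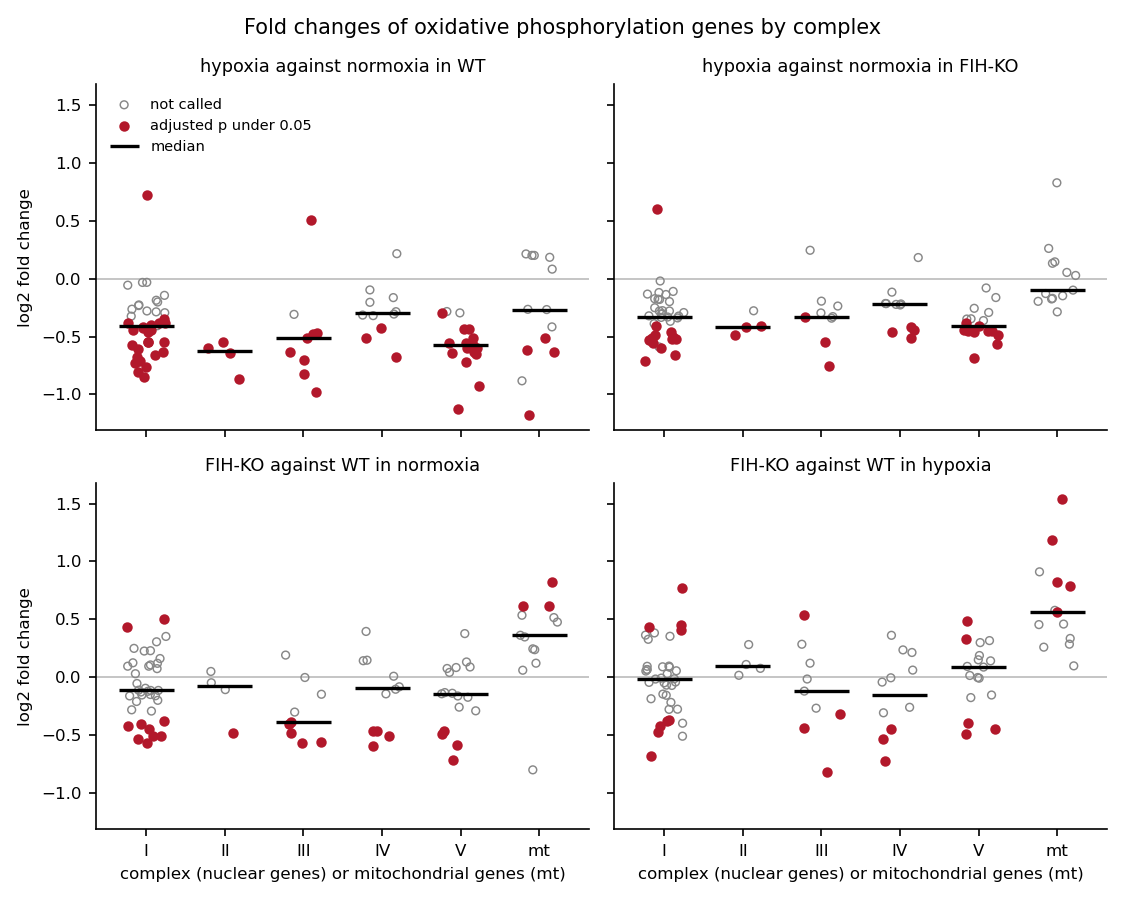
Log2 fold change of each tested subunit gene in 4 comparisons, with nuclear genes split by complex and the 13 mitochondrial genes (mt) apart. Filled points passed an adjusted p of 0.05, open points did not, and bars are medians over all tested genes of a class. Medians in WT hypoxia run from -0.62 in complex II to -0.30 in complex IV, and Cox6a2 of complex IV, whose fold rests on libraries at or near 0 counts, is left out of the points.

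Among the 80 tested nuclear members, 3 rose in WT hypoxia. Cox6a2, the isoform of a complex IV subunit that is typical of heart and skeletal muscle, had 0 and 0 counts in WT normoxia and 69 and 53 in WT hypoxia. That is at least 20.2-fold higher against a floor of 3 counts per library, and 19.5-fold or 20.9-fold with a single hypoxia library. Cox6a2 passed the filter on low counts only through the hypoxia libraries, where it was high, so its call adds no support to these counts. With at least 10 counts required in every library it was not tested. FIH-KO libraries held 3 and 3 counts of Cox6a2 in normoxia and 44 and 19 in hypoxia, a ratio of 11.6 with an exact 95% interval of 5.04 to 32.8 that covers counting error only. Even then its level was 1.24 to 3.87 CPM, against 54.0 to 85.2 CPM for the widespread isoform Cox6a1 over all libraries. The 6 striated muscle markers summed to 0.683 to 3.44 CPM, highest in FIH-KO libraries, and their part in this result was not tested. Ndufv3, an accessory subunit of the NADH-binding module of complex I, had 38.0 and 36.0 CPM in WT normoxia and 66.6 and 55.2 in WT hypoxia, with a log2 fold change of 0.72 ± 0.16 (adjusted p = 0.0059). In FIH-KO cells it went from 59.8 and 44.8 CPM to 88.3 and 70.6 CPM (0.60 ± 0.16, adjusted p = 0.024). The WT call was lost without WT hypoxia replicate 1 or WT normoxia replicate 2, and the FIH-KO call without FIH-KO hypoxia replicate 1 or FIH-KO normoxia replicate 2. Uqcrq, a small subunit of complex III, rose in WT cells from 55.4 and 60.1 CPM to 84.7 and 79.5 CPM (0.51 ± 0.17, adjusted p = 0.035), a call that held in 2 of the 8 fits with a library left out. FIH-KO libraries had 39.0 and 39.6 CPM of Uqcrq in normoxia and 56.5 and 36.6 CPM in hypoxia, so that its groups overlapped there.

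**Figure D3:**
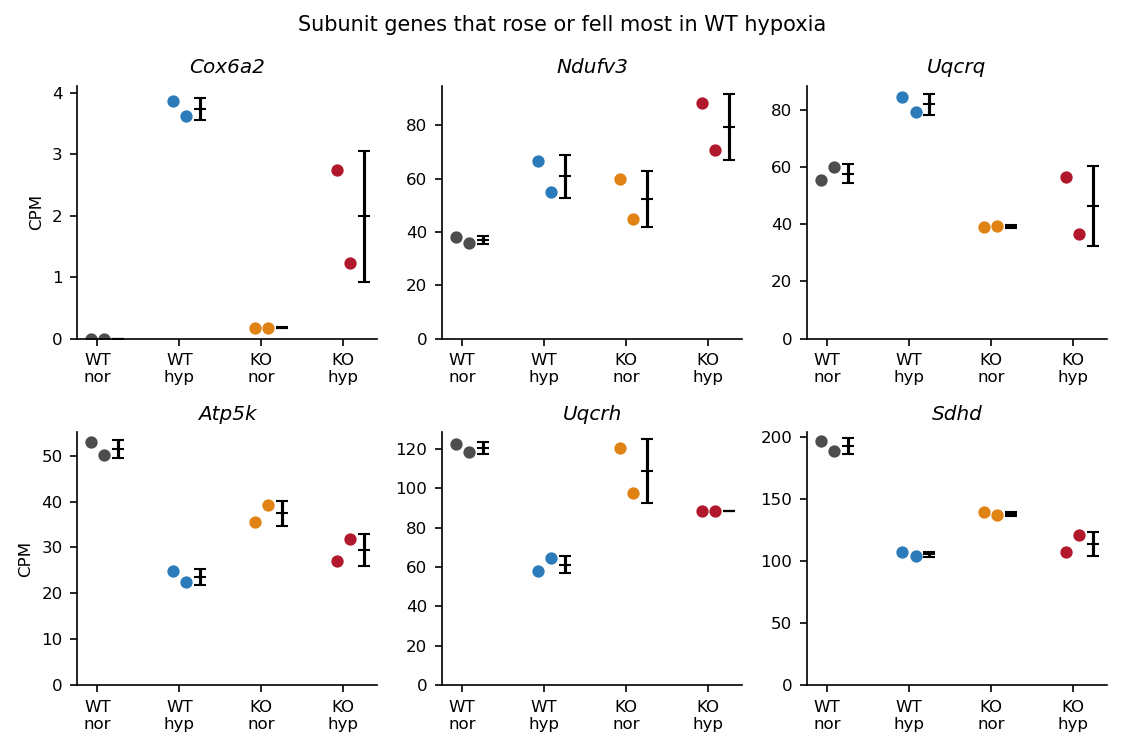
CPM of 6 nuclear subunit genes in each of the 8 libraries, with the mean ± SD of the 2 libraries of a group beside the points (nor, normoxia, and hyp, hypoxia). Cox6a2, Ndufv3 and Uqcrq were higher in both WT hypoxia libraries than in both WT normoxia libraries, and Atp5k, Uqcrh and Sdhd were lower.

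The 250 bases before the start of the main GENCODE transcript are printed for the members that rose and for Atp5k, which fell most, because the core of the hypoxia response element, ACGTG or GCGTG, can be looked for there. Capitals mark these letters on either strand, where overlapping matches merge. All are GRCm39, written in the direction of the gene.
Cox6a2, chr7:127805560-127805809, minus strand: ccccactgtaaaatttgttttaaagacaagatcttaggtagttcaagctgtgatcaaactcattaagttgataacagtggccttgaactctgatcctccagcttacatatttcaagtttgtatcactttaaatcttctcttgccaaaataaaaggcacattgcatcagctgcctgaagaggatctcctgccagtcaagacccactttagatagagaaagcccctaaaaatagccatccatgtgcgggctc
Ndufv3, chr17:31738825-31739074, plus strand: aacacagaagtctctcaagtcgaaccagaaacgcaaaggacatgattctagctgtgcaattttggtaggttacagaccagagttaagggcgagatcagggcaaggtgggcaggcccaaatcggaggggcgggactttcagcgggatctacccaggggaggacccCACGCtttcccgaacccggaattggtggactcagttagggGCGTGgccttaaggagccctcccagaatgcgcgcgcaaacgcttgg
Uqcrq, chr11:53321671-53321920, minus strand: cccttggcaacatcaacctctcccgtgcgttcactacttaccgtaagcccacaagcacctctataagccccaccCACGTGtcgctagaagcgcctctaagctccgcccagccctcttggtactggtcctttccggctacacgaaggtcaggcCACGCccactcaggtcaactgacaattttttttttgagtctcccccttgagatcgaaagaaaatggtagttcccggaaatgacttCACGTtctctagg
Atp5k, chr5:108582315-108582564, minus strand: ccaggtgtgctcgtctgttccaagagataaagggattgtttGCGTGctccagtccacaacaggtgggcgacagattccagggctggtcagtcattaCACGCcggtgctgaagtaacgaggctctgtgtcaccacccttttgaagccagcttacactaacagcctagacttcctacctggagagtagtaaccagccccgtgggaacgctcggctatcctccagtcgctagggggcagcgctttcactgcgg
Counted on both strands, the core occurred 4 times before Uqcrq, 2 times before Ndufv3, 2 times before Atp5k and 0 times before Cox6a2. Of the 4 before Uqcrq, 2 are the same CACGTG read on either strand, at -176 to -172 and -175 to -171. In windows of 300 bases, 250 before the start and 50 after it, 62.6% of 11611 tested protein-coding genes held at least 1 core. The share was 51.2% of the 80 tested nuclear members and 53.8% of the 52 that fell in WT hypoxia. Other motifs known from promoters of respiratory genes were in 10% of the 80 members for GCATGCGC, part of the NRF1 site, against 5.23% of all, in 15% against 16.4% for the ETS core CCGGAAG, and in 11.2% against 6.51% for the YY1 core AAGATGG. These letters are a description of the windows and show no binding.

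In FIH-KO cells nuclear subunit genes fell in hypoxia as well, with 33 lower and 2 higher of 80. Among all tested genes, 8% were lower and 8.84% higher, and the members' median was -0.34 beside -0.03 for all. Medians were -0.33 in complex I, -0.41 in II, -0.33 in III, -0.22 in IV and -0.41 in V, and counts of lower genes were 13, 3, 3, 4 and 10. Of the 33, 29 were also among the 52 lower in WT cells, which is 87.9% of the former and 55.8% of the latter. Uqcrc1 fell most, from 178 and 171 CPM to 98.0 and 109 CPM (log2 fold change -0.75 ± 0.10, adjusted p = 0.00065). It was followed by Ndufa10, Atp5d, Ndufb6 and Ndufc1, which fell by 0.71, 0.69, 0.66 and 0.60. The nuclear calls that held with every library left out were 6, for Uqcrc1, Ndufa10, Atp5d, Ndufb6, Atp5g3 and Cox6a2. Of these, Cox6a2 passed the filter on low counts only through hypoxia libraries, so that its call adds no support. Over all members the count of 35 became 15 without either WT normoxia library, 10 and 22 without FIH-KO normoxia replicate 1 or 2, and 13 without FIH-KO hypoxia replicate 1. It was 8 with only the 4 FIH-KO libraries in the fit.

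A smaller count of calls in FIH-KO cells does not show a smaller response, and the difference between the responses was tested itself. No gene of the 13933, and so 0% and no member, passed in the edgeR interaction between genotype and oxygen. At an unadjusted p under 0.05 there were 925 genes (6.64%), of which 10 were members, and DESeq2 called 35 genes and 0 members. The 10 were Sdhd, Atp5g3, Uqcrb, Ndufb3, Cox6a2, Cox7a2, Cox6a1, Atp5k, Uqcrh and mt-Nd6. With no filter on low counts, Uqcrh and mt-Nd6 did pass in edgeR (adjusted p = 0.049 and 1.3e-11). Uqcrh had 120 and 97.4 CPM in FIH-KO normoxia and 88.5 and 88.6 CPM in FIH-KO hypoxia, beside the WT values given above. Levels of Atp5k were 35.5 and 39.3 CPM in FIH-KO normoxia and 27.0 and 31.8 CPM in FIH-KO hypoxia, between the WT normoxia and WT hypoxia levels.

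Genotype moved fewer nuclear subunit genes in normoxia, and mostly downward. In FIH-KO cells 22 of the 80 were lower and 2 higher than in WT cells, where 13% of all tested genes were lower and 15.2% higher, and the median was -0.13. Complex III had the lowest median, -0.38, with 5 of 9 genes lower. Complex I had 8 lower and 2 higher, namely Ndufv3 and Ndufa1. Ndufv3 had 38.0 and 36.0 CPM in WT and 59.8 and 44.8 CPM in FIH-KO normoxia (log2 fold change 0.50 ± 0.16, adjusted p = 0.038), and its call held in 4 of the 8 fits with a library left out. Another 4 genes were lower in each of complexes IV and V, and 1 in complex II. With each library left out, 3 nuclear calls held, those of Atp5pb, Atp5md and Uqcrfs1. Uqcrfs1 had 106 and 104 CPM in WT normoxia and 70.8 and 70.8 CPM in FIH-KO normoxia (log2 fold change -0.57 ± 0.10, adjusted p = 0.0019). Ndufs4, an accessory subunit that complex I needs for stability, went from 51.4 and 52.2 CPM to 40.5 and 29.5 CPM (-0.57 ± 0.15, adjusted p = 0.015), and its call was lost without FIH-KO normoxia replicate 2 or either WT normoxia library. Over all members the count of 27 became 8 without either WT normoxia library and 13 without FIH-KO normoxia replicate 1.
In hypoxia 14 nuclear members were lower and 7 higher in FIH-KO cells, with 13.9% and 14.1% of all tested genes lower and higher, and the median was -0.006. Of the 14, 12 were also among the 22 of normoxia, and the higher genes of both conditions shared Ndufa1 alone. Uqcrq fell most, by 0.82 ± 0.17 on the log2 scale (adjusted p = 0.0037), followed by Cox8a, Ndufb8, Cox5a and Atp5pb. The higher genes were led by Ndufb4 (0.77 ± 0.19, adjusted p = 0.011), for which 38.0% of 100-base windows are repeated elsewhere, and by Uqcrh (0.53 ± 0.12, adjusted p = 0.007). Atp5e, Ndufa1 and Ndufa11 were higher by 0.49, 0.45 and 0.44. The calls of Uqcrq, Cox8a, Ndufb8, Cox5a and Atp5pb held with each library left out, and the higher calls did not. Over all members the count of 26 became 15 and 13 without WT hypoxia replicate 1 or 2, and 16 with only the 4 hypoxia libraries in the fit.

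Part of the genotype difference lay on chromosomes 3 and 19. On chromosome 19 lie 5 members, namely the complex I genes Ndufb8, Ndufs8 and Ndufv1, Cox8a of complex IV and Atp5md of complex V, and all 5 were lower in FIH-KO cells in both oxygen conditions, although the hypoxia calls of Ndufs8 and Ndufv1 held in 1 and 2 of the 8 fits with a library left out. In normoxia the calls of Ndufs8, Ndufv1 and Ndufb8 held in 5, 5 and 6 of these fits and those of Cox8a and Atp5md in 7 and 8, and in hypoxia Ndufb8, Cox8a and Atp5md held in 8, 8 and 7. The hypoxia call of Ndufs8 also held in 1 of the 8 other alternatives and that of Ndufv1 in 6. On chromosome 3, Atp5pb, the peripheral stalk subunit b, and Ndufb5 were lower in both conditions. The calls of Atp5pb held with each library left out, and those of Ndufb5 held in 6 of the 8 fits in normoxia and 3 in hypoxia, the latter also lost with only the 4 compared libraries (adjusted p = 0.062). The third member there, Ndufc1, had 19.7 and 19.2 CPM in WT normoxia and 18.5 and 15.2 CPM in FIH-KO normoxia. Together the 8 genes showed log2 fold changes with a median of -0.52 at 21% O2 and -0.46 at 1% O2, against -0.11 and 0.02 for the 72 tested on other chromosomes. The shift was not particular to subunit genes, since 40.3% of the 476 tested genes on chromosome 19 and 35.4% of the 683 on chromosome 3 were lower in normoxia. The share was 10.9% among all tested genes outside chromosomes 3, 19 and X and the mitochondrial genome. In hypoxia these shares were 43.3%, 36.3% and 11.8%. Ndufb8, on the minus strand, lies 7347 bases from the edited gene Hif1an on chromosome 19 (GRCm39, Ndufb8 at 44537011-44543939 and Hif1an at 44551286-44568723). Its level was 47.0 and 47.2 CPM in WT normoxia and 33.3 and 31.7 CPM in FIH-KO normoxia, with a log2 fold change of -0.53 ± 0.12 (adjusted p = 0.0072). In hypoxia it was 37.4 and 34.6 CPM in WT and 21.9 and 23.2 CPM in FIH-KO cells (-0.68 ± 0.13, adjusted p = 0.0022). Atp5pb had 254.7 and 257.2 CPM in WT normoxia and 162 and 151 CPM in FIH-KO normoxia (-0.71 ± 0.10, adjusted p = 0.00046), the largest fall of any nuclear member in that comparison. Of the 3 members on chromosome X, Ndufa1 was higher in FIH-KO cells in both conditions, by 0.44 ± 0.15 and 0.45 ± 0.15 (adjusted p = 0.045 and 0.042), calls that held in 3 and 2 of the 8 fits with a library left out. Ndufb11 and Cox7b had levels of 39.9 to 54.1 and 71.8 to 101 CPM over the 8 libraries and did not pass.

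**Figure D4:**
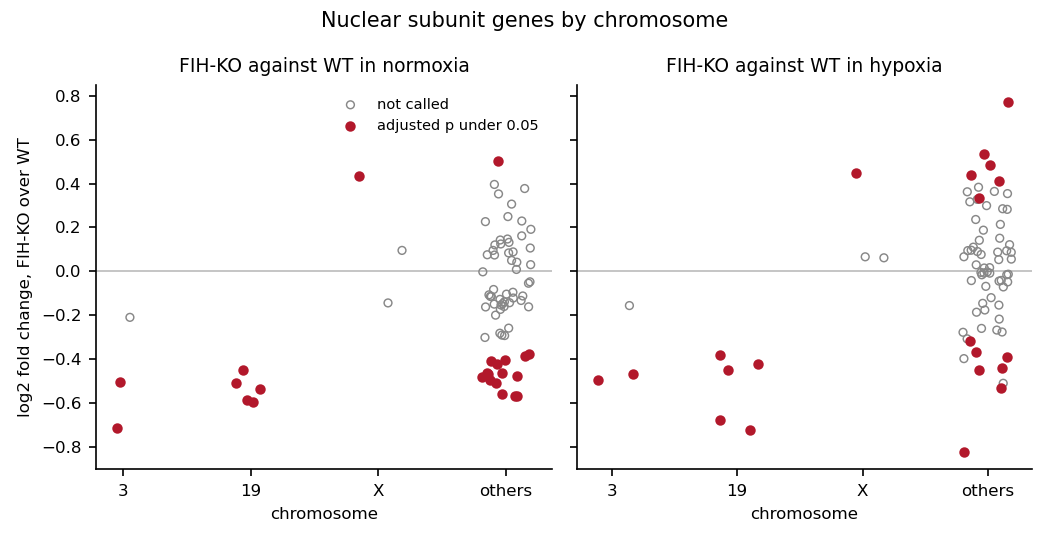
Log2 fold change of FIH-KO over WT for the tested nuclear subunit genes on chromosomes 3, 19 and X and on all others, in normoxia (left) and hypoxia (right), with filled points for an adjusted p under 0.05 and Cox6a2 left out. All 5 genes on chromosome 19 and 2 of 3 on chromosome 3 are filled and below 0 in both panels.

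By genotype, the mitochondrial genes that passed were all higher in FIH-KO cells. In normoxia 3 of 13 were higher in FIH-KO cells and 0 lower, with a median log2 fold change of 0.36, and in hypoxia 5 were higher and 0 lower, with a median of 0.56. Among all tested genes 15.2% were higher in normoxia and 14.1% in hypoxia. Both FIH-KO libraries lay above both WT libraries for 8 of the 13 in normoxia and 12 in hypoxia, or 61.5% and 92.3%, against 34.6% and 29.1% of all tested genes. The normoxia median was 0.20 without WT normoxia replicate 2. The single mitochondrial gene with a fitted value below 0 in normoxia, mt-Nd6, had 88.5 and 31.5 CPM in WT and 37.7 and 31.1 CPM in FIH-KO cells and did not pass. Of the genes that passed, mt-Nd2 of complex I had 1746 and 1640 CPM in WT normoxia and 3225 and 2748 CPM in FIH-KO normoxia (0.82 ± 0.15, adjusted p = 0.0018). Under hypoxia mt-Nd2 had 1155 and 1215 CPM in WT and 2338 and 3051 CPM in FIH-KO cells (1.18 ± 0.15, adjusted p = 0.0002). Also higher in normoxia were mt-Nd4 (0.62 ± 0.14, adjusted p = 0.0062) and mt-Nd5 (0.61 ± 0.14, adjusted p = 0.0065). In hypoxia mt-Nd1, mt-Cytb and mt-Nd4 were higher by 0.82, 0.79 and 0.56. With each library left out, the calls that held were those of mt-Nd2 in both conditions and of mt-Nd1 and mt-Cytb in hypoxia. The fifth, mt-Nd3, was higher by 1.54 ± 0.38 (adjusted p = 0.0097), but it held 11 to 65 counts per library and 98.8% of its windows are repeated. All 3 genes of complex IV and both of complex V missed the threshold in both conditions, among them mt-Co1 with 7521 and 5647 CPM in WT normoxia and 8848 and 6684 CPM in FIH-KO normoxia, groups that overlap.

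Between the oxygen conditions, 4 of the 13 mitochondrial genes were lower and 0 higher in WT hypoxia, where 15.5% of all tested genes were lower and 16.9% higher, and none of the 4 calls held with each library left out. These were mt-Nd1, from 3149 and 2560 CPM to 1806 and 1868 CPM (log2 fold change -0.64 ± 0.15, adjusted p = 0.008), mt-Nd2 (-0.51 ± 0.15, adjusted p = 0.019), mt-Nd3 and mt-Atp8. The last pair held 11 to 38 and 63 to 104 counts per WT library, and mt-Atp8 lay at the threshold. For mt-Nd4 and mt-Nd5 the WT hypoxia levels of 991 and 942 and of 1686 and 1527 CPM lay beside normoxia levels of 910 and 792 and of 1579 and 1457 CPM. In FIH-KO cells 0 mitochondrial genes passed in either direction by edgeR, and 1 had an unadjusted p under 0.05. The median was -0.27 in WT cells and -0.10 in FIH-KO cells, and the latter was 0.025 without FIH-KO normoxia replicate 1. The libraries of WT normoxia differed most for mt-Nd6, with 1377 counts in replicate 1 and 532 in replicate 2, while the other groups held 460 to 1044. In FIH-KO cells mt-Nd6 went from 37.7 and 31.1 CPM in normoxia to 54.2 and 68.0 CPM in hypoxia and did not pass.

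Set against the whole library, nuclear subunit genes took a smaller share in hypoxia in both genotypes, and mitochondrial genes took a larger share in FIH-KO cells in both oxygen conditions. Nuclear members held 1.05% ± 0.00477 of counts in WT normoxia and 0.745% ± 0.0051 in WT hypoxia (SD, n = 2). In FIH-KO cells the shares were 0.969% ± 0.0435 in normoxia and 0.733% ± 0.0212 in hypoxia. Mitochondrial genes took 1.92% and 1.55% of the WT normoxia libraries, 1.58% and 1.64% of the WT hypoxia libraries, 2.60% and 2.07% of the FIH-KO normoxia libraries and 2.18% and 2.54% of the FIH-KO hypoxia libraries. Every FIH-KO library lay above every WT library in the mitochondrial share, while the oxygen conditions overlapped within each genotype. The ratio of mitochondrial to nuclear subunit counts was 1.83 and 1.49 in WT normoxia, 2.11 and 2.21 in WT hypoxia, 2.60 and 2.20 in FIH-KO normoxia and 3.04 and 3.39 in FIH-KO hypoxia. It was thus lowest in both WT normoxia libraries and highest in both FIH-KO hypoxia libraries, and the groups between them overlapped. With 2 libraries against 2 no permutation test of a single share can reach 0.05, and none was run.

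**Figure D5:**
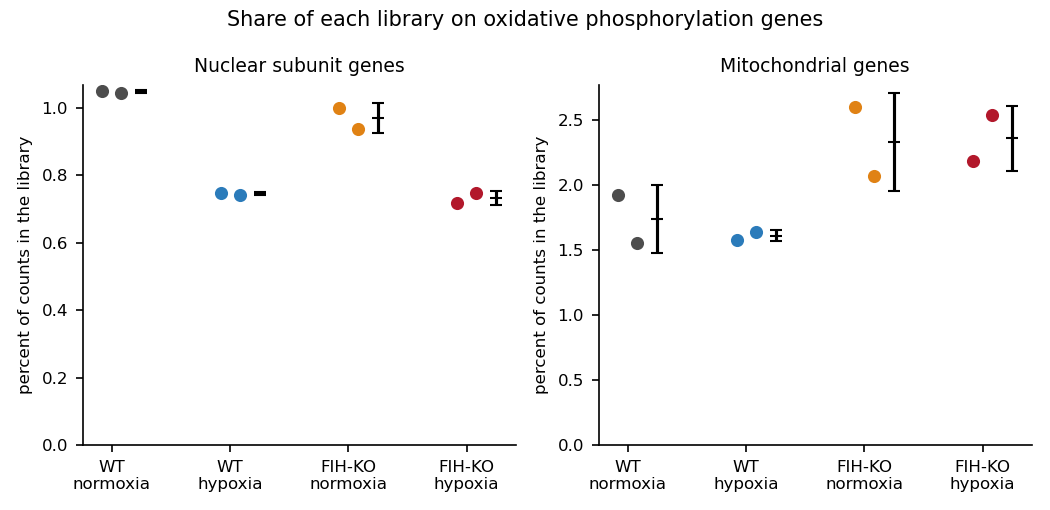
Percent of each library's counts on the 89 nuclear (left) and 13 mitochondrial (right) subunit genes, as points, with the mean ± SD of the 2 libraries of a group. The nuclear share is lower in both hypoxia groups, and the mitochondrial share is 1.55% to 1.92% in WT and 2.07% to 2.60% in FIH-KO libraries.

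Tissue isoforms other than Cox6a2 stayed at or near 0. Ndufa4l2, a paralog of Ndufa4 known as a HIF target, had 0 counts in all but the FIH-KO hypoxia libraries, which held 1 and 5. Cox7a1, the muscle partner of Cox7a2, had 2 to 12 counts per library, and Cox8b and Cox6b2 had none. The widespread partners carried the signal, with 80.8 to 156 CPM for Ndufa4, 51.5 to 91.1 for Cox7a2, 53.8 to 128 for Cox8a and 69.2 to 117 for Cox6b1. Ndufa4, now counted with complex IV in much of the field, fell in hypoxia by 0.43 in WT and 0.51 in FIH-KO cells, calls that held in 4 and 6 of the 8 fits with a library left out. Cox7a2l, which joins complexes III and IV, was among the few members with higher levels in both WT hypoxia libraries, at 172 and 147 CPM against 133 and 141 CPM, but did not pass.

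Genes that assemble, supply and regulate the chain were read from 9 lists, and 108 of their 110 genes were tested. The counts below stand beside 15.5% of all tested genes lower and 16.9% higher in WT hypoxia. In WT hypoxia, assembly factors were lower for 4 of 15 genes of complex I, 1 of 4 of complex II, 1 of 6 of complex III, 4 of 21 of complex IV and 0 of 3 of complex V. The only higher assembly factor was Cox17, a copper chaperone of complex IV, with 3.86 and 4.50 CPM in WT normoxia and 5.94 and 10.6 CPM in WT hypoxia (log2 fold change 0.97 ± 0.28, adjusted p = 0.021). Among 14 tested electron carrier genes 3 were lower and 1 higher, and among 29 genes for mitochondrial DNA and RNA maintenance 3 were lower and 3 higher. Tfam, which packages and transcribes mitochondrial DNA, had 62.8 to 71.4 CPM over all libraries and passed in no comparison. The HIF-linked regulators of respiration were higher for 4 and lower for 1 of 7 genes in hypoxia, in each genotype. Of all tested genes 16.9% were higher and 15.5% lower in WT hypoxia, and 8.84% higher and 8% lower in FIH-KO hypoxia. Higd1a rose by 2.48 ± 0.15 in WT and 2.92 ± 0.16 in FIH-KO cells (adjusted p = 2.1e-06 and 7.2e-07). Pdk1, which limits the entry of pyruvate to the citric acid cycle, rose by 1.91 ± 0.20 and 3.09 ± 0.21 (adjusted p = 4.4e-05 and 2.9e-06), and the protease Lonp1 rose by 1.96 ± 0.16 and 1.77 ± 0.16 (adjusted p = 9e-06 and 2.3e-05). None of these rises differed between the genotypes by the edgeR interaction, which no gene passed.

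By genotype, cytochrome c (Cycs), the mobile carrier between complexes III and IV, was lower in FIH-KO cells in normoxia (-0.79 ± 0.11, adjusted p = 0.00047) and hypoxia (-0.43 ± 0.11, adjusted p = 0.015). Coq8b, a regulator of ubiquinone synthesis, was higher in both (1.01 ± 0.21 and 0.92 ± 0.22, adjusted p = 0.004 and 0.0083). Of the 14 tested electron carrier genes 4 were lower and 1 higher in normoxia, and 3 lower and 1 higher in hypoxia. Maintenance genes were lower for 7 and higher for 1 of 29 in normoxia, with 3 lower and 0 higher in hypoxia, beside 13% and 13.9% of all tested genes lower, and 15.2% and 14.1% higher, in normoxia and hypoxia. Twnk, the helicase that unwinds mitochondrial DNA and a gene of chromosome 19, fell by 0.71 ± 0.15 and 0.88 ± 0.15 (adjusted p = 0.004 and 0.0012), while the mitochondrial RNA polymerase Polrmt was higher in normoxia (0.37 ± 0.12, adjusted p = 0.034). The 7 HIF-linked regulators had 3 lower and 0 higher in normoxia, with a median log2 fold change of -0.34. In hypoxia 3 of them were lower and 1 higher, with a median of -0.19. The higher gene was Pdk1, by 0.64 on the log2 scale, whereas its fitted value in normoxia lay below 0. Of 9 biogenesis regulators 4 were lower in normoxia and 3 in hypoxia, with 0 higher, counting Ppargc1a in both. The coactivator Ppargc1a had 13 and 14 counts in WT normoxia, 11 and 5 in WT hypoxia and 0 in all 4 FIH-KO libraries. It passed the filter on low counts only through WT libraries, where it was high, so its calls add no support to these counts. Nrf1, a factor that binds promoters of respiratory genes, had 48.2 to 64.5 CPM in WT and 43.0 to 52.6 CPM in FIH-KO libraries and did not pass.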

How the data were processed

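Stranded mRNA libraries from 8 samples were sequenced, aligned to GRCm39 with STAR and counted per gene with HTSeq by the authors. The deposited values are raw counts of 53700 genes without normalization. Strand setting and treatment of reads that map to several places are not given in the sources used here. Positions came from GENCODE vM39, which holds 97.97% of the identifiers, and 17 members carry another symbol there. In all, 16 members overlap exons of another gene on the same strand, and their counts are uncertain.

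In R 4.3.3, edgeR 4.0.16 (filterByExpr, TMM, 4 group means, quasi-likelihood test) was fitted over all 8 libraries, and p-values were adjusted by Benjamini-Hochberg over 13933 genes. The common biological coefficient of variation was 11.7%. Fold changes are log2 with SE, and the script was checked on simulated counts. Exact repeats were sought in GRCm39 with windows of 100 bases. Named were all mitochondrial and Sdh genes, the isoform pairs, members on chromosomes 3 and 19, and the 5 nuclear members that rose and the 5 that fell most per comparison. From the accompanying lists only some genes are named, as examples, and not the largest called changes of every list. Exceptions are given as examples chosen after their values were seen. Members and lists were chosen with earlier results of these data known. Alternatives were DESeq2 1.42.0, RLE and upper-quartile factors, scaling without mitochondrial genes, no filter, at least 10 counts in every library, the replicate block, the 4 compared libraries alone, and each library left out.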

Additional observations from a re-analysis of the deposited data

Results flagged for a closer look

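Counts also fell on the chromosome 1 copies of mitochondrial genes, which no comparison above uses. The 7 pseudogenes (Gm10222, Gm28439, Gm10925, Gm28437, Gm29216, Gm28438 and Gm28661) summed to 1297 counts in the lowest and 2291 in the highest library, beside 861 to 1394 counts for the 6 mitochondrial genes that share their sequence. No library serves as a control without them. Whether these counts stem from chromosome 1 or from mitochondrial RNA was not tested.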

How the results depend on the processing

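Replicate numbers were not used to pair the libraries in the main fit, because the labels tie no number to a shared culture. The correlation of same-numbered deviations ran from -0.0104 to 0.193. With 1 difference per group, it cannot exclude shared cultures or batches. With the replicate block the called members were 29 and 30 for FIH-KO against WT in normoxia and hypoxia and 56 and 34 for hypoxia in WT and FIH-KO cells, beside 27, 26, 59 and 35 without it.
No direction was reversed among the called members named, and of their values under the alternatives 1255 also stayed past the threshold while 263 missed it. The nuclear median by genotype in hypoxia, close to 0, took either sign. With only the 4 compared libraries, called members became 16 for FIH-KO against WT in hypoxia and 8 for hypoxia in FIH-KO cells, and the nuclear medians 0.023 and -0.31. Complex III medians for these comparisons became -0.091 and -0.30. Without the filter, 2 members passed the edgeR interaction, Uqcrh with an adjusted p of 0.049 and mt-Nd6 with 1.3e-11. The 2 WT normoxia libraries held unlike counts of mt-Nd6, 1377 and 532. Without the filter the genotype medians in hypoxia were 0.032 for nuclear genes, 0.025 for complex I and -0.082 for complex III. Scaling without mitochondrial genes gave 0.024 and -0.090 for nuclear genes and complex III in that comparison and -0.48 and -0.54 in WT hypoxia. A minimum of 10 counts in every library gave -0.30 for complex III in FIH-KO hypoxia and -0.025 for complex IV by genotype in hypoxia. The main value of the latter was -0.15, and counting Ndufa4 and Ndufa4l2 with complex IV instead gave -0.26. Leaving out chromosomes 3 and 19 gave a nuclear median of 0.024 by genotype in hypoxia. Members with no repeated window, a choice made after seeing the data, had -0.51 in WT hypoxia, and the mitochondrial genes not mostly repeated, chosen likewise, had 0.36 and 0.79 by genotype in normoxia and hypoxia and -0.42 and 0.03 by hypoxia in WT and FIH-KO cells. With ribosomal and transfer RNA added, the mitochondrial share in WT hypoxia was 1.67%.
With each library left out, called members ranged from 8 to 35 by genotype in normoxia, 13 to 29 by genotype in hypoxia, 36 to 69 by hypoxia in WT and 10 to 29 by hypoxia in FIH-KO cells. Medians of all nuclear genes ran from -0.18 to -0.10 for genotype in normoxia, from -0.027 to 0.044 for genotype in hypoxia, from -0.52 to -0.44 for hypoxia in WT and from -0.36 to -0.28 for hypoxia in FIH-KO cells. Mitochondrial medians ran from 0.20 to 0.47 and 0.53 to 0.67 for genotype in normoxia and hypoxia, and from -0.39 to -0.22 and -0.13 to 0.025 for hypoxia in WT and FIH-KO cells. Medians of complex I ran from -0.015 to 0.038 for genotype in hypoxia and from -0.49 to -0.40 for hypoxia in WT. Medians of complex II ran from -0.19 to -0.012 for genotype in normoxia, from 0.066 to 0.22 for genotype in hypoxia and from -0.49 to -0.29 for hypoxia in FIH-KO cells. Medians of complex III ran from -0.44 to -0.38 for genotype in normoxia, from -0.23 to -0.046 for genotype in hypoxia, from -0.61 to -0.49 for hypoxia in WT and from -0.34 to -0.30 for hypoxia in FIH-KO cells. Medians of complex IV ran from -0.27 to -0.078 for genotype in hypoxia and from -0.38 to -0.22 for hypoxia in WT. Medians of complex V ran from -0.71 to -0.51 for hypoxia in WT.
With 2 libraries a group, leaving out a library leaves a lone one that is assumed to vary like the others. Depth limits the members under about 100 counts per library, mt-Nd3, mt-Nd4l, Cox6a2 and the untested ones, and the 6 repeated mitochondrial genes rest on an unknown treatment of shared reads.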
